A study of Mus musculus with 4 samples.

Results

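A set of 125 cells with GABAergic genes and with RNA of the interneuron genes Maf, Nxph1, Lhx6 or Sst was read from a single-cell data set of embryonic mouse brain, out of 1121 cells with at least 1400 genes detected and 1141 cell barcodes in all. The tissue, as labelled, was cortex, hippocampus and subventricular zone of an E18 (embryonic day 18) C57BL/6 mouse, without treatment or genetic change named in the labels. A single 10x Genomics Chromium v2 emulsion was split into aliquots named by their 190 and 951 cells, and cDNA from every aliquot was read on an Illumina instrument and, after further amplification, on a Nanopore instrument (4 libraries). A UMI is a random tag that marks 1 captured RNA molecule, and all values below are UMIs per gene (Illumina) or per annotated transcript isoform (Nanopore). Both aliquots hold cells of the same suspension, so they are technical replicates, and the p-values below measure only the spread between them, not between mice.

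The cells were chosen on Illumina UMIs, separately in each aliquot. A cell was taken when Gad1, Gad2, Dlx1, Dlx5 and Dlx6os1 summed to at least 2 UMIs, Neurod2 and Neurod6 to at most 2, and Lhx6, Maf, Nxph1 and Sst to at least 2 and to more than the striatal genes Ebf1, Isl1, Foxp2 and Zfp503. The cycling genes Top2a, Mki67, Ube2c, Birc5, Nusap1, Cdk1, Rrm2 and 2810417H13Rik had to sum to fewer than 5. This gave 19 of 186 cells in the 190 cell aliquot, or 10.2% (exact binomial 95% interval 6.26 to 15.5), and 106 of 935 cells in the 951 cell aliquot, or 11.3% (9.38 to 13.5). Like all intervals below, these cover counting error only. The genes of this rule are described without a test.

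Cortical interneurons are born in the ganglionic eminences of the ventral forebrain and migrate tangentially into cortex and hippocampus. In those from the medial ganglionic eminence (MGE), Nkx2-1 turns on the LIM homeobox gene Lhx6, followed by the transcription factors Sox6, Satb1 and Maf, and part of these cells come to make the neuropeptide somatostatin (Sst), often with neuropeptide Y (Npy). Interneurons from the caudal ganglionic eminence (CGE) carry other genes such as Prox1, Nr2f2 and Htr3a, and the lateral ganglionic eminence gives rise to the striatal projection neurons.

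The working name of the cells was Sst-type interneurons, and the data bear out only part of it. An Sst UMI was present in 38 of the 125 cells, while 115 had a Maf UMI and 89 an Nxph1 UMI, so the cells are called Maf/Nxph1 cells here. Sst, Maf and Nxph1 are genes of the rule, so these numbers follow in part from the selection. Of the cell barcodes, 13 occurred in both aliquots, 11 of them with the same class in both, and 1 was a Maf/Nxph1 cell in both (3517 and 4048 UMIs), which leaves 124 distinct barcodes among the 125. Results were therefore also computed without these barcodes. Scrublet called 4 of 186 and 5 of 935 cells doublets, none of them a Maf/Nxph1 cell.

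The long reads separate transcripts that differ in a single exon, and the exons that carry the isoform results are shown here, read from Gencode vM21 on GRCm38, all on the plus strand and all internal coding exons. Gria1, the GluA1 subunit of AMPA-type glutamate receptors, uses either a flip exon (chr11:57310608-57310722) or a flop exon (chr11:57309769-57309883), each of 115 bases. Pkm, which encodes pyruvate kinase, uses either the M1 exon (chr9:59675029-59675195) or the M2 exon (chr9:59675568-59675734), each of 167 bases. Capitals mark the bases at which the paired exons differ, 36 positions in Gria1 and 64 in Pkm.
Gria1 flip: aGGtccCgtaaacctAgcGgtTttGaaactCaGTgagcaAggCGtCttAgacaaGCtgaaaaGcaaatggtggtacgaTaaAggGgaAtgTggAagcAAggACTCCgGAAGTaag
Gria1 flop: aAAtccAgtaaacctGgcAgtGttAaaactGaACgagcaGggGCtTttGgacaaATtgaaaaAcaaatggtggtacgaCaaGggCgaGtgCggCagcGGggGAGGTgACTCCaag
Pkm M1: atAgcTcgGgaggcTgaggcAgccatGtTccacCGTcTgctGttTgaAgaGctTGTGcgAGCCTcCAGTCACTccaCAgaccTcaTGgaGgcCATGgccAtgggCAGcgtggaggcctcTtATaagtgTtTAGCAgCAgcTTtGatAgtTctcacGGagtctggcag
Pkm M2: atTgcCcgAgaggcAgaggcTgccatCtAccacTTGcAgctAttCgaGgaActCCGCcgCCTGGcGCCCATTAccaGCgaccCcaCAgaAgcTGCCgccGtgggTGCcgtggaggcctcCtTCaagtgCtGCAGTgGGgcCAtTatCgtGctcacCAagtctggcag

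In Clta (clathrin light chain A), Ergic3 (a protein that cycles between the endoplasmic reticulum and the Golgi) and Psap (prosaposin, the precursor of lysosomal saposins) a short exon is either included or skipped. It is shown in capitals, with 15 transcript bases on each side in lower case. The Clta exon has 54 bases (chr4:44030215-44030268), the Ergic3 exon 15 bases (chr2:156015377-156015391) and the Psap exon 9 bases (chr10:60297537-60297545).
Clta: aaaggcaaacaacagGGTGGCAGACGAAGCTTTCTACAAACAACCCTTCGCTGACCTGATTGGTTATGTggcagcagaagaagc
Ergic3: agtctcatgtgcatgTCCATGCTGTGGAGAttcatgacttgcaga
Psap: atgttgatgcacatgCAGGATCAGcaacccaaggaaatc

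Illumina depth per Maf/Nxph1 cell ranged from 3517 to 7675 UMIs in the 190 cell aliquot (median 5786) and from 3001 to 13046 in the 951 cell aliquot (median 5123). The cells held 105750 and 554122 Illumina UMIs and 57159 and 321828 isoform-assigned Nanopore UMIs in total. For comparison, cells of the other classes were taken with the same kind of rule: 69 striatal-type cells (GABAergic, with the striatal genes above the interneuron genes), 474 glutamatergic neurons (Neurod2 and Neurod6 summing to at least 3), 25 radial glia and 162 cycling cells. The glutamatergic neurons and the radial glia also needed a GABAergic sum below 2 and fewer than 2 UMIs of Eomes and Neurog2. The radial glia needed at least 5 UMIs of Slc1a3, Ptprz1, Aldoc, Ednrb, Hes1, Hes5 and Pax6, and at most 2 of Neurod2 and Neurod6. Cycling cells had a cycling sum of at least 5, and all other classes a lower sum. Median depth over both aliquots was 5143 UMIs in the Maf/Nxph1 cells, 5956 in the striatal-type cells and 8653.5 in the glutamatergic neurons.

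The rule cut through a continuous range at its lower end. With the interneuron sum at its minimum of 2 there were 14 Maf/Nxph1 cells, and 14 further cells met all other parts with a sum of 1. At the GABAergic minimum there were 18 Maf/Nxph1 cells, and 4 cells lay just below it. The upper limits removed nothing, as 0 cells that met the other parts exceeded the limit for Neurod2 and Neurod6 or for the cycling genes. The striatal sum was 0 in 111 of the 125 cells, the Neurod2 and Neurod6 sum in 108 and the cycling sum in 89.

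The genes Maf (chr8:115682942-115707794, minus strand) and Nxph1 (chr6:8948431-9249032, plus strand) were found in most of the cells, in part because the rule selects on them. Maf, a basic leucine zipper transcription factor of MGE-derived interneurons, had a UMI in 17 of 19 and 98 of 106 cells, with 59 and 331 UMIs or 558 and 597 CPM (the UMIs of a gene scaled to the total UMIs of the summed cells). Nxph1, which encodes the neurexin ligand neurexophilin 1, had a UMI in 14 and 75 cells, with 340 and 372 CPM. The aliquots thus lay close together for both genes. Maf was seen in 13 of 474 glutamatergic neurons and Nxph1 in 3, although those neurons were sequenced more deeply. Thinned to 3000 UMIs per cell, 86.4% of the Maf/Nxph1 cells kept a Maf UMI and 61.6% an Nxph1 UMI, against 92.0% and 71.2% before.

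Lhx6 (chr2:36081953-36105408, minus strand) was detected in 8 of 19 and 33 of 106 cells and reached 132 and 74.0 CPM. The gene of this LIM homeobox factor was seen in 1 of 474 glutamatergic neurons and in 0 of 69 striatal-type cells, where the exact 95% interval for cells with a UMI reaches to 5.21%. As a gene of the rule it was low in the striatal-type cells by their selection, since these were taken with the interneuron sum below the striatal sum. It was carried by few molecules, 55 UMIs in all 125 cells, and the share of cells with a UMI fell from 32.8% to 20% after thinning.

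Sst (chr16:23889573-23890958, minus strand) was seen in 5 of 19 and 33 of 106 cells, 30.4% of all 125 (exact binomial 95% interval 22.5 to 39.3). The share with a UMI in the glutamatergic neurons, which should lack Sst, was 2.53%, and after thinning the shares were 29.6% and 0.422%. Sst RNA was unevenly spread over the cells. The highest cell held 155 of the 498 Sst UMIs, or 31.1%, and the next cells 89 and 34. The 20 cells with at least 5 Sst UMIs held 93.6% of them. The level of 426 and 818 CPM in the 190 and the 951 cell aliquot therefore rests on a few cells and differed more between the aliquots than that of Maf or Nxph1.

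The neuropeptide gene Npy (chr6:49822710-49829507, plus strand) and the receptor subunit gene Gria1 (chr11:57011387-57330244, plus strand) were not part of the rule, but were named as markers of these cells with earlier results of these data known. Npy had a UMI in 6 of 19 and 33 of 106 cells, at 322 and 554 CPM, with 49, 42 and 36 of the 341 UMIs in the highest cells. Npy was also seen elsewhere, with 1 UMI each in 5 of 69 striatal-type cells and in 8.23% of the glutamatergic neurons, whose highest cells held 7 and 27 UMIs in the 190 and the 951 cell aliquot. Gria1 had a UMI in 14 and 77 cells, 72.8% in all, at 473 and 301 CPM, against 12.2% of the glutamatergic neurons and 7 of the striatal-type cells. Gria1 was thus spread over most of the cells, while Npy, like Sst, was concentrated in some of them.

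**Figure D1:**
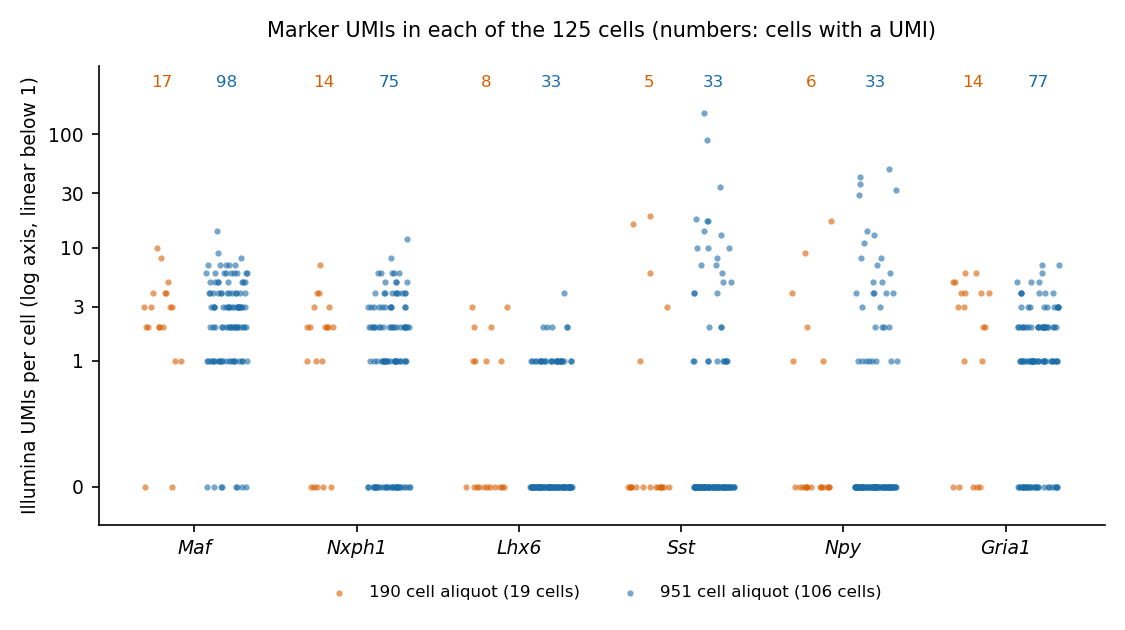
Illumina UMIs of the 6 marker genes in each of the 125 Maf/Nxph1 cells, on a log axis that is linear below 1, with points in orange for the 190 cell aliquot and in blue for the 951 cell aliquot and the number of cells with a UMI above each group. Maf and Nxph1 were detected in most cells with few UMIs each, while Sst and Npy are at 0 in most cells and reach 155 and 49 UMIs in single cells.

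The markers did not all occur in the same cells. Of the genes Lhx6, Maf, Nxph1 and Sst, 22 cells had UMIs of 1, 58 of 2, 35 of 3 and 10 of all 4, and 2 cells entered through Sst alone. Neither Sst nor Npy had a UMI in 66 cells. Both were present in 18 cells.

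Cells with an Sst UMI were set beside those without, as a description, since Sst is a gene of the rule and cells are not replicates. Median depth was 5390 UMIs in the 38 cells with and 5051 in the 87 cells without. Maf lay at 544 CPM with and 613 CPM without an Sst UMI and Nxph1 at 370 and 365 CPM. These levels follow in part from the rule, since cells without Sst had to reach the sum of 2 through the other genes. Npy had 264 UMIs in 18 of the 38 cells and 77 UMIs in 21 of the 87 cells, or 1270 against 170 CPM. This difference came from the 951 cell aliquot (1408 against 139 CPM). In the 190 cell aliquot the values were 336 CPM in the 5 cells with an Sst UMI and 316 CPM in the 14 others, and each rested mainly on 1 cell. All 9 Npy UMIs of the former came from the cell whose barcode is also a Maf/Nxph1 cell of the 951 cell aliquot, so that the value is 0 without it, and 17 of the 25 UMIs of the latter came from a single cell.

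Further genes of MGE interneurons were spread between these cells in different ways. Reln, which encodes the secreted glycoprotein reelin, had 26 UMIs in 11 of the 38 cells and 11 UMIs in 7 of the 87. Cort, which encodes the somatostatin relative cortistatin, had a UMI in 5 of the 38 cells and 1 of the 87. The neuregulin receptor gene Erbb4 went the other way, with 57.7 CPM in cells with and 131 CPM in cells without an Sst UMI. The serotonin receptor gene Htr3a, a marker of CGE interneurons, was found in 1 of the 38 and 12 of the 87, and Nkx2-1 in 1 and 8. These numbers are small, and none of these differences was tested.

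A single Maf/Nxph1 cell stood apart. This cell of the 951 cell aliquot had the highest depth of all (13046 UMIs, 3952 genes) and held 372 of the 421 Fabp7 UMIs of the 125 cells, where no other cell had more than 4. It also had 85 UMIs of Dbi, 66 of Mt3, 35 of Vim and 11 of the glutamate transporter gene Slc1a3, all genes of radial glia, beside 3 UMIs of Maf and 1 of Lhx6. It was not called a doublet and its barcode was not shared between the aliquots. The 10 radial glia genes looked at summed to 671 and 1514 CPM in the Maf/Nxph1 cells of the 190 and the 951 cell aliquot, against 804 and 555 CPM in the striatal-type cells. Without this cell the sum in the 951 cell aliquot was 455 CPM. Fabp7 had the most UMIs of them, and Hopx was at 0.

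Genes of other cell types were read in the same way. The 5 oligodendrocyte precursor genes, among them Pdgfra and Olig2, were all at 0 UMIs in 659872. The 8 microglia genes summed to 2 UMIs with C1qa, C1qb and Cx3cr1 at 0, and the 8 vascular genes to 11, with Pecam1 the highest at 6 and Cldn5 at 0. Haemoglobin genes were found at 662 and 579 CPM, with Hbb-bs the highest, and at a like level of 767 and 647 CPM in the striatal-type cells. Of 13 glutamatergic neuron genes 4 were at 0 UMIs, among them the defining genes Slc17a7 and Neurod1. The other 9 summed to 1882 and 1563 CPM, most of it Mef2c (807 of 1065 UMIs), against 262 and 311 CPM in the striatal-type cells. The 8 Cajal-Retzius genes summed to 125 UMIs with Trp73 and Lhx5 at 0 and Snhg11 the highest at 78. The part of these genes in the results below was not tested, apart from the cell with the most Fabp7.

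The striatal-type cells (10 and 59 cells) were taken with the same GABAergic minimum, and the first comparison asked how the Maf/Nxph1 cells differ from them beyond the genes that define both. Erbb4, Npy, Satb1 and other MGE interneuron genes were higher in the Maf/Nxph1 cells, by a log2 fold change of 4.46 for Satb1. That of Npy was 5.23, but Npy was named as a marker of these cells with earlier results known. The transcription factor genes Zfhx3, Meis2 and Foxp1 were lower, by a log2 fold change of -5.96 for Meis2. UMIs were summed per class and aliquot and tested with edgeR's quasi-likelihood F test at a Benjamini-Hochberg adjusted p under 0.05. Of 7390 genes tested, 193 were called (2.61%), of which 119 were higher (1.61%) and 74 lower (1.00%) in the Maf/Nxph1 cells. The median log2 fold change of all genes was 0.04. With the aliquot as a block 294 genes were called, without the barcodes found in both aliquots 165, and without the cell with the most Fabp7 198. The count fell to 75 without the Maf/Nxph1 cells of the 951 cell aliquot and to 54 (27 higher and 27 lower) without the striatal-type cells of that aliquot, where the median of all genes was 0.40.

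The 10 genes with the largest fitted rise were taken outside the rule, with at least 50 UMIs in the Maf/Nxph1 cells. Of these 10, 4 had no UMI at all in the striatal-type cells. Erbb4 (chr1:68032186-69108059, minus strand) reached 123 and 105 CPM in the Maf/Nxph1 cells, at least 15.2-fold higher, where the bound takes 3 UMIs over the striatal-type cells in place of 0. Dgkg, a diacylglycerol kinase gene, was at least 12-fold higher with 66.2 and 88.4 CPM. Ubash3b, which encodes a phosphatase, was at least 10.9-fold higher. Cacng3, which encodes an auxiliary subunit of AMPA receptors, was at least 10.7-fold higher. All 4 lost their call without the striatal-type cells of the 951 cell aliquot, which leaves 10 striatal-type cells as the reference (edgeR adjusted p from 0.122 to 0.428), as did Cux2, Satb1, Pou3f1 and Pbx3 among the genes named below (0.0513 to 0.210). Cacng3 also missed the call with DESeq2 (adjusted p = 0.0650).

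Other large rises had a few UMIs in the striatal-type cells. Dlgap1, which encodes a scaffold of the postsynaptic density, lay at 416 and 388 CPM against 0 and 13.5 CPM, a log2 fold change of 5.0 ± 0.45 (SE, 2 aliquots a class). Ackr3, the scavenging receptor for the chemokine Cxcl12, lay at 227 and 170 CPM against 0 and 8.12 CPM (4.65 ± 0.65). Satb1, a chromatin organizer that MGE-derived interneurons need for their maturation, lay at 132 and 103 CPM against 0 and 5.41 CPM (4.46 ± 0.70). For these genes both aliquots of the Maf/Nxph1 cells lay far above both aliquots of the striatal-type cells. The homeobox gene Cux2 (4.70 ± 0.74) and Id3, an inhibitor of basic helix-loop-helix factors (4.65 ± 0.64), complete the rises beside Npy (5.23 ± 0.46), the marker named beforehand.

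Among the genes with at least 50 UMIs in the striatal-type cells and outside the rule, the falls included several transcription factor genes. Zfhx3 (chr8:107942644-108961630, plus strand) had 0 UMIs in the 125 cells against 15 and 60 UMIs in the striatal-type cells, and was at least 39.0-fold lower, with 3 UMIs over the Maf/Nxph1 cells as the floor. Meis2 (chr2:115863064-116065839, minus strand) lay at 18.9 and 43.3 CPM against 2338 and 2353 CPM, a log2 fold change of -5.96 ± 0.33 (edgeR adjusted p = 1.60e-31). Foxp1 lay at 56.7 and 32.5 CPM against 823 and 639 CPM (-4.23 ± 0.33). The homeobox gene Six3 rested on 2 UMIs against 55 (-5.34 ± 0.99), and it lost its call with stricter classes (edgeR adjusted p = 0.107) and without the Maf/Nxph1 cells of the 951 cell aliquot (0.0555).

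The other genes named here had other roles. Islr2, a membrane protein of growing axons, changed by -4.55 ± 0.35 on the log2 scale, the POU factor gene Pou3f1 by -4.18 ± 0.48, and the calmodulin regulator Pcp4 by -3.54 ± 0.39. Apbb2, which binds the amyloid precursor protein, changed by -3.50 ± 0.50, Ntrk3, the neurotrophin-3 receptor, by -3.40 ± 0.49, and the TALE homeobox gene Pbx3 by -2.96 ± 0.50. Pbx3 missed the call without the Maf/Nxph1 cells of the 951 cell aliquot (edgeR adjusted p = 0.179). In each of them the higher Maf/Nxph1 aliquot stayed below the lower striatal-type aliquot.

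**Figure D2:**
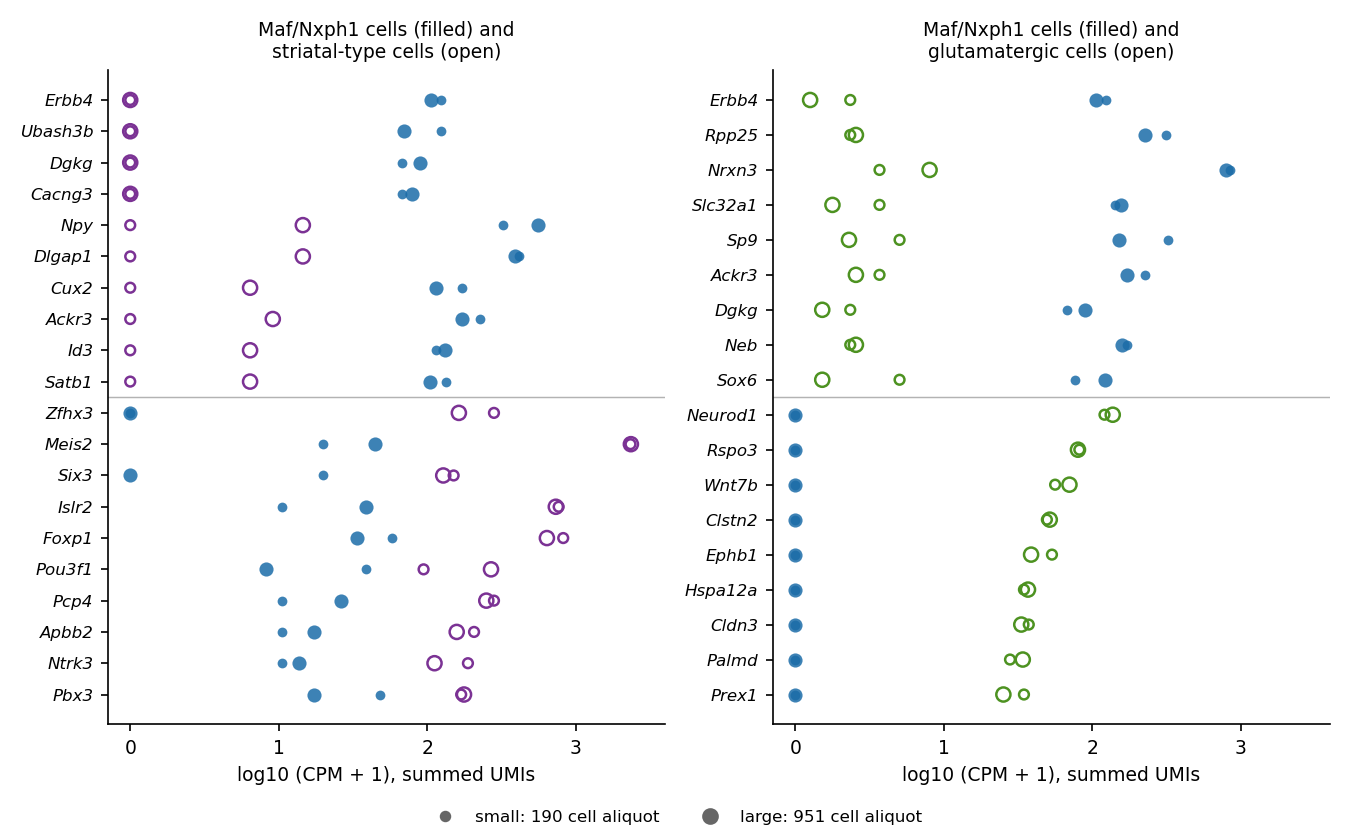
Level of genes with the largest fitted rise (above the line) and the largest fitted fall (below the line) in the Maf/Nxph1 cells (filled circles) against striatal-type cells (left, open circles) and glutamatergic neurons (right, open circles). Values are log10 of CPM plus 1 in each aliquot (small circles, 190 cell aliquot, and large circles, 951 cell aliquot). For all genes shown the filled circles of both aliquots lie on the same side of the open circles, and the genes that fell against the glutamatergic neurons are at 0 in both Maf/Nxph1 aliquots.

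Over all genes tested 1.61% were higher and 1.00% lower, the shares to set beside each list count below. The gene lists cover a small part of the called genes and are described by their counts, with no test of a list. In both comparisons a gene could pass the filter on low counts through the class where it is high. The lists were also chosen with earlier results of these data known. The direction of a list is therefore a description and no independent result. Many of their calls depended on the settings. Of the 24 called list genes beyond those with the largest changes, 14 missed the call with DESeq2, 13 without the Maf/Nxph1 cells of the 951 cell aliquot and 16 without the striatal-type cells of that aliquot, and 0 with the aliquot as a block. Of 25 MGE interneuron genes outside the rule 15 passed the filter on low counts, and 9 of them were higher and 1 lower, with a median log2 fold change of 3.6. Among these, Zeb2, a transcription factor that steers interneurons away from the striatum, lay at 1154 and 1016 CPM against 168 and 86.6 CPM (3.28 ± 0.32), and Sox6 at 75.7 and 121 CPM against 18.7 and 5.41 CPM (3.81 ± 0.68), where the call of Sox6 was lost on thinned cells (edgeR adjusted p = 0.0561). The gene of this list that fell was Zfhx3. Pvalb, which marks a class of MGE interneurons only later in development, and Nos1 were at 0 UMIs. Mef2c missed the call in spite of a wide gap, with 1418 and 1186 CPM against 56.1 and 127 CPM (3.49 ± 0.73, edgeR adjusted p = 0.108), and passed it with the aliquot as a block (5.76e-09) and with DESeq2 (0.00084). It passed also without a filter on low counts (edgeR adjusted p = 2.64e-18), with the 2 classes alone in the fit (3.54e-34) and on thinned cells (2.05e-09). The same held with stricter classes (edgeR adjusted p = 0.0392) and without doublets (1.40e-08). Leaving out 1 of the 4 sums gave log2 fold changes of 3.23 to 4.63 for Mef2c. The list holds Npy and Gria1, which were named as markers beforehand.

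The striatal projection neuron list mirrored this, with 0 higher and 7 lower of 9 tested (20 in the list) and a median of -4.09. Beside Meis2, Foxp1, Six3, Pou3f1 and Pbx3, the fall took in Meis1 (-2.64 ± 0.68) and Bcl11b (-1.44 ± 0.27). Bcl11b, which encodes the zinc finger factor Ctip2, remained at 378 and 318 CPM in the Maf/Nxph1 cells. Of 12 CGE interneuron genes 6 were tested, with a median of 2.52, and the neuropeptide gene Cck (3.27 ± 0.81) and Npas3 (2.39 ± 0.67) were higher. With DESeq2 Meis1, Cck and Npas3 missed the call (adjusted p = 0.172, 0.208 and 0.322), and with stricter classes Six3, Meis1 and Npas3 missed it (edgeR adjusted p = 0.107, 0.502 and 0.250). Cck missed it also on thinned cells (edgeR adjusted p = 0.0734) and with the 2 classes alone in the fit (0.135), and Npas3 without the shared barcodes (0.0502). Prox1 had 4 UMIs in the Maf/Nxph1 cells and Vip 0. Other genes of the list were present, with Nr2f2 in 5 of the 38 cells with and 11 of the 87 cells without an Sst UMI. Htr3a was found in 1 and 12 of them.

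Of the genes of GABA synthesis and transport outside the rule 4 were tested and 0 called, where 2.61% of all genes were, so that the count says little about so few genes. Slc32a1, the vesicular GABA transporter, lay at 142 and 155 CPM against 93.5 and 89.3 CPM (0.69 ± 0.40). The same holds for the GABA receptor subunits, of which 5 were tested and 0 called. Of the Dlx and other homeobox genes of the GABAergic lineage 7 were tested, with 1 higher and 0 lower. Dlx2 lay at 444 and 274 CPM against 93.5 and 154 CPM without passing the test (edgeR adjusted p = 0.125), which it passed with the aliquot as a block (0.00162). Dlx2 passed it also without a filter on low counts (edgeR adjusted p = 0.0330), with the 2 classes alone in the fit (0.00201), on thinned cells (0.0371) and without doublets (0.0392).

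Of 6 ionotropic glutamate receptor subunits tested 3 were higher, where 1.61% of all genes were. Gria1, counted here, was named as a marker beforehand. Gria1 rose by 3.68 ± 0.42 on the log2 scale. Gria4, the GluA4 subunit, lay at 104 and 61.4 CPM against 0 and 5.41 CPM (3.88 ± 0.85). Grin2b, an NMDA receptor subunit, was called at 1.09 ± 0.31. This call of Grin2b was lost with DESeq2 (adjusted p = 0.207), without a filter on low counts, with stricter classes, without the shared barcodes and without any 1 of the 4 sums compared (edgeR adjusted p from 0.0694 to 0.298), and that of Gria4 with DESeq2 (0.0692). Gria2, the subunit that sets the calcium permeability of AMPA receptors, was not called, at 113 and 222 CPM against 168 and 192 CPM (-0.05 ± 0.31).

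Of 17 tangential migration genes tested 4 were higher and 1 lower, where 1.61% of all genes were higher and 1.00% lower. The receptor gene Cxcr4, which reads the chemokine Cxcl12 together with Ackr3, lay at 66.2 and 75.8 CPM against 0 and 5.41 CPM (3.85 ± 0.89), and Reln was called at 4.42 ± 1.13. Both missed the call with DESeq2 (adjusted p = 0.0943 for Cxcr4 and 0.159 for Reln), Cxcr4 also on thinned cells (edgeR adjusted p = 0.123) and Reln without the shared barcodes (0.0577). The ephrin receptor gene Epha4 fell by 2.08 on the log2 scale (SE 0.31), from 804 and 490 CPM in the striatal-type cells to 227 and 105 CPM. Doublecortin (Dcx), which migrating neurons of all kinds carry, was not called (0.70 ± 0.28) except with the aliquot as a block (edgeR adjusted p = 0.0213).

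Among the remaining lists, synaptic vesicle genes had 2 higher of 18 tested, Syn2 (3.73 ± 0.70) and Syt1 (1.39 ± 0.33). Synaptic adhesion genes had 3 higher, Ptprd (2.79 ± 0.46), the neurexophilin gene Nxph2 (4.85 ± 1.15) and Nrxn3 (1.04 ± 0.27), and 2 lower of 17, among them Tenm3 (-3.48 ± 0.78). Ptprd lay at 1.64 without the striatal-type cells of the 951 cell aliquot. Tenm3 lay at -1.63 without the Maf/Nxph1 cells of that aliquot. With DESeq2 Syt1, Nxph2, Nrxn3 and Tenm3 missed the call (adjusted p = 0.305, 0.0885, 0.110 and 0.214), and Nrxn3 missed it also without a filter on low counts and without any 1 of the 4 sums (edgeR adjusted p from 0.0757 to 0.236). Neuropeptide genes had 3 higher of 10, Npy, Cck and Pcsk1n (1.64 ± 0.30). Potassium channel genes had 0 called of 5, radial glia genes 0 of 10, erythroid genes 0 of 4 and glutamatergic neuron genes 1 of 10, Cux2, counts that are too small to be read against the 2.61% of all genes. Of 11 stress and immediate early genes tested Fos was higher, at 312 and 240 CPM against 56.1 and 83.9 CPM (1.70 ± 0.34), a call lost without the striatal-type cells of the 951 cell aliquot (edgeR adjusted p = 0.0513). Fos encodes a transcription factor that neuronal activity and handling induce.

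The second comparison set the Maf/Nxph1 cells against the glutamatergic neurons (74 and 400 cells), the excitatory cells of the same tissue. Slc32a1 and other genes of GABAergic neurons were higher, by 6.79 on the log2 scale for Slc32a1, and Neurod1 of the excitatory lineage was not detected. The glutamatergic neurons were taken with a GABAergic sum below 2 and with Neurod2 and Neurod6 summing to at least 3. Differences in other genes of these lineages therefore follow in part from the opposed rules. Of the 7390 genes, 534 were called (7.23%), 229 higher (3.10%) and 305 lower (4.13%), with a median log2 fold change of -0.02 over all genes. With DESeq2 the split was 128 higher and 121 lower, with a median of 0.03. The comparison shares the Maf/Nxph1 sums with the first. With the aliquot as a block 820 genes were called, without the shared barcodes 495, and without the cell with the most Fabp7 551. The count fell to 186 without the Maf/Nxph1 cells of the 951 cell aliquot, where 93 were higher and 93 lower, and to 315 without the glutamatergic neurons of that aliquot.

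Among genes outside the rule with at least 50 UMIs in the Maf/Nxph1 cells the largest fitted rise was that of Erbb4, at 123 and 105 CPM against 1.35 and 0.261 CPM (7.42 ± 0.74). Nrxn3, which encodes the presynaptic adhesion molecule neurexin 3, lay at 842 and 790 CPM against 2.70 and 7.04 CPM (6.94 ± 0.35, edgeR adjusted p = 1.88e-35). Slc32a1 rose by 6.79 ± 0.51, Sox6 by 6.27 ± 0.54 and the zinc finger gene Sp9 by 6.60 ± 0.62. Ackr3 (6.52 ± 0.50) and Dgkg (6.50 ± 0.80) rose in this comparison too. Rpp25, a subunit of ribonuclease P, lay at 312 and 227 CPM against 1.35 and 1.56 CPM (7.16 ± 0.46), and Neb, which encodes the muscle protein nebulin, lay at 170 and 157 CPM against 1.35 and 1.56 CPM (6.50 ± 0.53).

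The 10 genes with the largest fitted fall had 0 UMIs in the Maf/Nxph1 cells, so their folds are bounds that take 3 UMIs over these cells. Their order is that of the fit, and some bounds lie below the fall of genes with UMIs in both classes, such as Nrp1. Neurod1, a basic helix-loop-helix factor of excitatory neurons, had 613 UMIs in the glutamatergic neurons and was at least 29.4-fold lower. The Wnt pathway genes Rspo3 and Wnt7b were at least 17.5-fold and 14.7-fold lower. Clstn2 (calsyntenin 2) and Ephb1 (an ephrin receptor) were at least 11.1-fold and 8.84-fold lower. For Hspa12a, Cldn3, Palmd and Prex1 the bounds lay between 5.67-fold and 7.83-fold. Of these genes Rspo3, Cldn3 and Palmd missed the call with DESeq2 (adjusted p = 0.185, 0.0657 and 0.0559). Clstn2, Ephb1, Hspa12a, Cldn3, Palmd and Prex1 missed it without the Maf/Nxph1 cells of the 951 cell aliquot.

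Of 58 called list genes beyond those with the largest changes 20 missed the call with DESeq2, 29 without the Maf/Nxph1 cells of the 951 cell aliquot and 16 without the glutamatergic neurons of that aliquot, and 0 with the aliquot as a block. For each list count below, the share over all genes tested was 3.10% higher and 4.13% lower. The counts of GABAergic and of glutamatergic neuron genes follow in part from the opposed class rules. Of 15 MGE interneuron genes tested 13 were higher and 0 lower, with a median of 4.10. Npas1 (5.48 ± 0.85), Elfn1 (6.01 ± 1.21) and Calb1, the calbindin gene (5.43 ± 0.77), were among them, at between 23.5 and 94.6 CPM in the aliquots of the Maf/Nxph1 cells. Mef2c was not called, at 1418 and 1186 CPM against 724 and 675 CPM. It passed the test with the aliquot as a block (edgeR adjusted p = 0.00528), with the 2 classes alone in the fit (0.00278) and on thinned cells (0.0488). Of 7 Dlx and homeobox genes tested 6 were higher, with Dlx2 at 6.13 ± 0.44 and Dlx6 at 5.58 ± 0.80. Of 4 GABA synthesis and transport genes 3 were higher, among them Slc32a1 and the GABA transaminase gene Abat (3.32 ± 0.95), which missed the call with DESeq2 (adjusted p = 0.135).

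The tangential migration genes moved in both directions. Of 17 tested, Ackr3, Erbb4, Cxcr4 (4.43 ± 0.60) and Reln (3.15 ± 0.64) were higher and 6 were lower, where 3.10% of all genes were higher and 4.13% lower. The semaphorin receptor gene Nrp1 lay at 9.46 and 19.9 CPM against 376 and 473 CPM (-4.63 ± 0.36), and Dab1, the adaptor inside the cell that reads the reelin signal, at 0 and 18 CPM against 216 and 231 CPM (-3.97 ± 0.39). Robo2, Nrp2, the reelin receptor gene Lrp8 and Plxna2 were the others called lower. With DESeq2 Nrp2, Lrp8 and Plxna2 missed the call (adjusted p = 0.266, 0.508 and 0.523). Lrp8 and Plxna2 missed it also without a filter on low counts, with stricter classes and without any 1 of the 4 sums compared (edgeR adjusted p from 0.0611 to 0.717), Plxna2 besides on thinned cells and with RLE factors, and Nrp2 with the 2 classes alone in the fit (0.0522).

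Receptor genes for transmitters differed by subunit. Gria1 rose by 4.10 ± 0.29 and Gria4 by 2.35 ± 0.49, while Gria2 fell by 1.85 on the log2 scale (SE 0.28), from 701 and 556 CPM to 113 and 222 CPM. Grin2b was not called (-0.43 ± 0.25) except with the aliquot as a block (edgeR adjusted p = 0.0349). Of 5 GABA receptor subunits tested Gabra2 was lower, at 37.8 and 37.9 CPM against 177 and 141 CPM (-2.11 ± 0.34). Gria4 missed the call without the glutamatergic neurons of the 951 cell aliquot (edgeR adjusted p = 0.0568). The somatostatin receptor gene Sstr2 had 2 UMIs in the Maf/Nxph1 cells against 182 in the glutamatergic neurons (-3.87 ± 0.76), a call lost without the Maf/Nxph1 cells of the 951 cell aliquot (edgeR adjusted p = 0.0862).

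Of 10 neuropeptide genes tested Npy and the nociceptin precursor gene Pnoc (5.89 ± 1.06) were higher and Cck lower (-1.13 ± 0.37). Of 10 glutamatergic neuron genes 7 were lower, and Cux2 (2.72 ± 0.40) and Cux1 (0.76 ± 0.25) were higher. Of 9 striatal projection neuron genes 1 was higher, Pbx3, and 3 lower, with Meis2 at -4.31 ± 0.32. With DESeq2 Cck, Cux1 and Pbx3 missed the call (adjusted p = 0.724, 0.198 and 0.105), while Cux2 kept it in every alternative run. Without any 1 of the 4 sums compared Cux1 and Pbx3 missed it (edgeR adjusted p from 0.0857 to 0.587), and each missed it in 9 alternatives in all. Among synaptic adhesion genes, 17 tested, 4 were higher and 6 lower, and Nxph2 lay at 94.6 and 65.0 CPM against 0, at least 106-fold higher with 3 UMIs over the glutamatergic neurons. Syt4, a synaptotagmin, fell by 2.88 on the log2 scale (SE 0.31). Of the 10 radial glia genes Sox2 was higher, at 293 and 179 CPM against 21.6 and 13.8 CPM (3.65 ± 0.31), and of the stress and immediate early genes Fos was higher (0.98 ± 0.27) and Ier2 lower. Fos missed the call with DESeq2 (adjusted p = 0.149) and without any 1 of the 4 sums (edgeR adjusted p from 0.0783 to 0.351), and Ier2 on thinned cells (0.212).

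Isoform usage was not used to choose the cells. For each gene the test compared the shares of its isoforms between classes, on Nanopore UMIs summed per class and aliquot, with edgeR's gene-level test for differential splicing. Against the striatal-type cells 3 of 451 genes were called (0.665%), against the glutamatergic neurons 6 (1.33%) and against the radial glia 39 (8.65%). At an unadjusted p under 0.05 the numbers were 33, 42 and 79. With the aliquot as a block 7, 18 and 41 genes were called, and without the shared barcodes 2, 5 and 40. Without the 951 cell aliquot of either class, 0 genes were called in the first and in the second comparison, and 21 and 12 in the third.

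Clta (chr4:44004452-44032846) differed between the Maf/Nxph1 and the striatal-type cells. The isoform with the 54-base exon, shown above, made up 76.7% of 43 and 79.4% of 228 UMIs in the Maf/Nxph1 cells, 79.0% in all (exact binomial 95% interval 73.6 to 83.7). In the striatal-type cells its share was 43.1% of 174 UMIs (35.6 to 50.8, edgeR adjusted p = 0.00184), a call that was lost without the filter on low counts (edgeR adjusted p = 0.234). Clta RNA as a whole lay at a like level, at 463 and 493 CPM against 486 and 468 CPM in the Illumina data (log2 fold change -0.02 ± 0.28). The glutamatergic neurons had 76.4%, the radial glia 1.33% of 75 UMIs and the cycling cells 18.1%, so the striatal-type cells lay between the other neurons and the progenitors.

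Crmp1, which encodes a cytosolic protein that relays semaphorin signals to growth cones, has an isoform with an upstream first exon (Crmp1-202, chr5:37242080-37242525). It held 16.7% of 30 and 15% of 180 UMIs in the Maf/Nxph1 cells and 0 of 122 in the striatal-type cells, where the exact 95% interval reaches to 2.98% (edgeR adjusted p = 0.00189). The glutamatergic neurons had 18.4% of 1359 UMIs. Rpn2, a subunit of the oligosaccharyltransferase of the endoplasmic reticulum, was called on few UMIs, with the isoform Rpn2-205 at 81.0% of 42 UMIs against 22.7% of 22. It lost its call without the shared barcodes (edgeR adjusted p = 0.0553), without a filter on low counts (0.781) and without any 1 of the 4 sums compared (0.0532 to 0.977), and Rpn2-205 is annotated without a coding sequence.

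Against the glutamatergic neurons none of the calls remained with stricter classes, in which 35 genes had an unadjusted p under 0.05, and 1 remained without the filter on low counts. Smarcd3, a gene of a chromatin remodelling complex, used Smarcd3-208 for 88.5% of 26 UMIs against 33.0% of 88, and the isoforms differ in their first exons. Prkar1a, a regulatory subunit of protein kinase A, used Prkar1a-201 for 95.2% of 62 UMIs against 71.3% of 390, again with another first exon. The noncoding RNA Pantr1 used Pantr1-212 for 26.2% of 84 UMIs against 6.96% of 1867. Akap9, which encodes an anchoring protein for protein kinase A, used Akap9-207 for 11% of 200 UMIs against 2.01% of 1142. Its difference was 3.31 percentage points in the 190 cell aliquot and 9.59 in the 951 cell aliquot. The transcription factor gene Tcf4 changed in 1 of its isoforms from 22.6% to 31.6%. The called gene left over, Cmc2, was outside the naming rule and is named here only because the count is small.

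The Maf/Nxph1 cells and the radial glia differed in many genes, as neurons and progenitors. Pkm (chr9:59656368-59679375) used the M1 exon for 69.8% of 43 and 68.9% of 241 UMIs in the Maf/Nxph1 cells, 69.0% in all (63.3 to 74.3), and for 0 of 195 UMIs in the radial glia, where the interval reaches to 1.87% (edgeR adjusted p = 1.28e-12). The M1 enzyme is a constantly active form, while the activity of M2 is regulated. The striatal-type cells lay at 57.4% and the glutamatergic neurons at 77.5%. Neither of these last differences was called for Pkm.

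Short exons were included more often in the Maf/Nxph1 cells than in the radial glia in further genes. The 15-base exon of Ergic3 was included in 94.5% of 109 UMIs against 0 of 40, where the interval reaches to 8.81%. The 9-base exon of Psap was included in 88.7% of 62 UMIs against 35.4% of 48, a call lost without the 951 cell aliquot of the Maf/Nxph1 cells or of the radial glia (edgeR adjusted p = 0.345 and 0.604). Clta included its exon in 79.0% against 1.33%. In the glutamatergic neurons these shares were 95%, 91.4% and 76.4%, each inside the interval of the Maf/Nxph1 cells (88.4 to 98.0, 78.1 to 95.3 and 73.6 to 83.7), and Ergic3, Psap and Clta were not called between these classes.

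Further genes of other functions changed between the Maf/Nxph1 cells and the radial glia. Rtn4, whose protein Nogo limits neurite growth, used Rtn4-205 for 90.6% of 128 UMIs against 30.8% of 26. Eef1d, a subunit of the translation elongation factor 1 complex, used Eef1d-218 for 40.4% of 52 UMIs against 95.9% of 74. Myl6, a light chain of myosin II, used Myl6-206 for 9.76% of 246 UMIs against 73.0% of 111. Zfand6 used Zfand6-208 for 2.00% of 50 UMIs against 70.4% of 27. The microtubule-associated kinase Dclk1 used Dclk1-212 for 0 of 86 UMIs against 55.6% of 27. For Dclk1-212 the difference was -28.6 percentage points in the 190 cell aliquot and -65.0 in the 951 cell aliquot. The noncoding RNA Meg3, with 27.3% of 810 UMIs against 81.8% of 55 for Meg3-207, lost its call without the cells called doublets (edgeR adjusted p = 0.0573) and without the radial glia of either aliquot (0.116 and 0.702). Rtn4 lost its call without the Maf/Nxph1 cells of the 951 cell aliquot (0.0824) and Dclk1 without the radial glia of that aliquot (0.116).

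**Figure D3:**
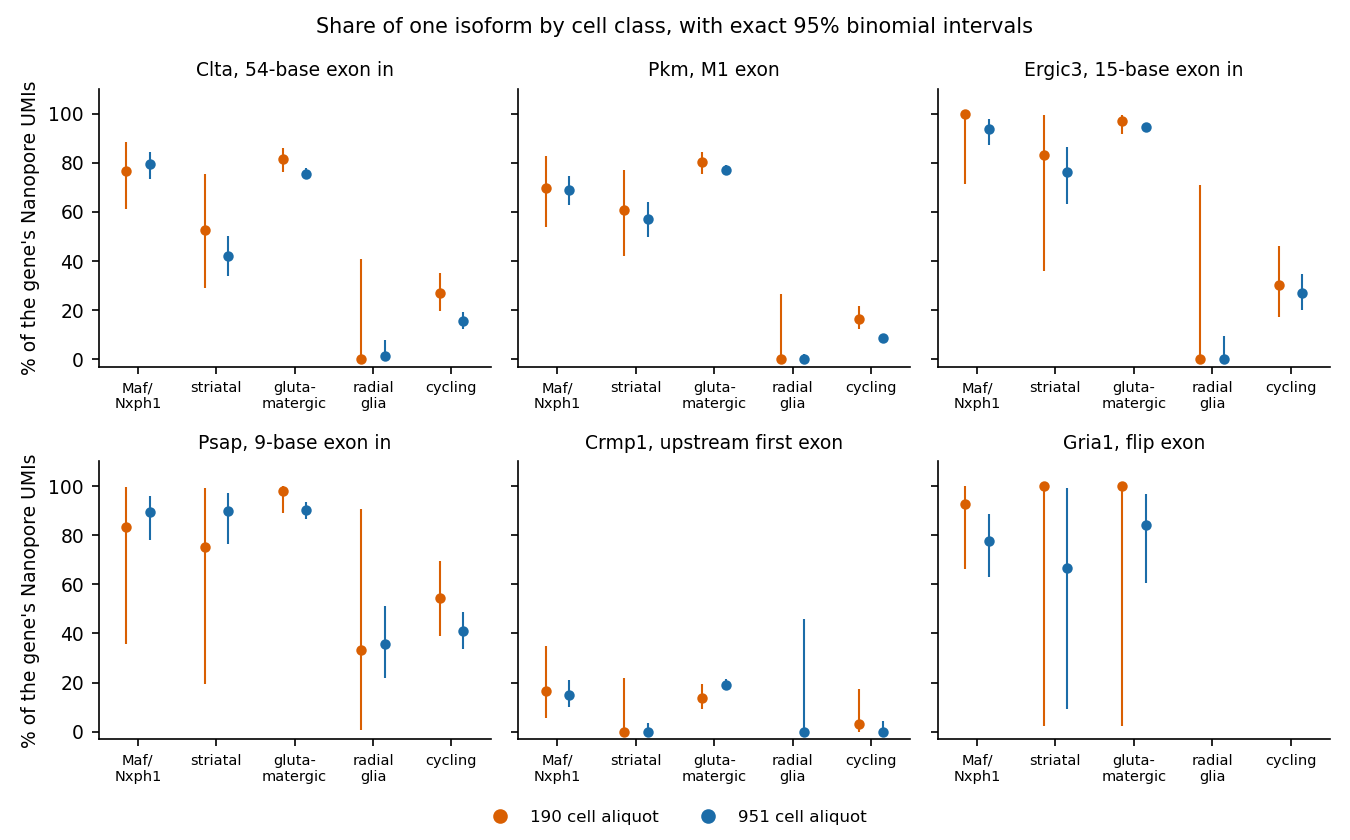
Share of 1 isoform among the Nanopore UMIs of its gene, in percent, in 5 cell classes and both aliquots, with exact binomial 95% intervals as bars and no point where a gene had no UMI. In both aliquots the Maf/Nxph1 cells lie near the glutamatergic neurons and above the radial glia for Clta, Pkm, Ergic3 and Psap, with wide intervals in the 190 cell aliquot, and they lie above the striatal-type cells for Clta and Crmp1.

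Gria1, a gene that marks these cells, had too few UMIs for the isoform test. In the Maf/Nxph1 cells the flip isoform held 13 of 14 and 35 of 45 UMIs, or 81.4% in all (exact binomial 95% interval 69.1 to 90.3), and flop the other 11 UMIs. The striatal-type cells had 3 of 4 and the glutamatergic neurons 17 of 20 UMIs on flip, which does not allow a comparison at this depth. Gria2 had 20 Nanopore UMIs in the Maf/Nxph1 cells, spread over 6 isoforms. Among the genes of the rule, Gad1-201 held 43 of 51 Gad1 UMIs and Gad1-203, a shorter isoform, 7, and Dlx1-201 held 66 of 83. Gad2, Sst (415 UMIs) and Npy (318 UMIs) were each read as a single isoform.

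The same cells read on both platforms showed which genes the isoform data can reach. Sst kept 415 of its 498 UMIs (83.3%) in the isoform-assigned Nanopore counts and Npy 318 of 341 (93.3%). Gria1 kept 27.2% and Gad2 80 of 296 UMIs. Maf, in contrast, kept 6 of 390 UMIs (1.54%), Nxph1 5 of 242 (2.07%), Lhx6 2 of 55 (3.64%), Sox6 1 of 75 and Erbb4 4 of 71. Over the 2034 genes with at least 50 Illumina UMIs in these cells whose symbol occurs in the isoform tables the median was 68.7% (quartiles 37.0 and 82.8), and 123 genes lay under 5%, of which 33 were at 0. A further 81 genes with as many Illumina UMIs were left out because their symbol is not in the isoform tables, which use another annotation. The near absence of Maf, Nxph1 and Lhx6 thus belongs to a small share of genes, and its cause was not tested.

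Applied to Nanopore UMIs, the same rule was met by 15 of the 125 cells (3 and 12 by aliquot) and by 0 other cells, with 2810417H13Rik unread since its symbol is not in the isoform tables. A Nanopore UMI of Lhx6, Maf, Nxph1 or Sst was present in 41 of the 125 cells, and at least 2 GABAergic UMIs in 85. The cells could therefore be found from the Illumina counts and followed in the long reads by their barcodes, but hardly from the isoform counts alone.

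**Figure D4:**
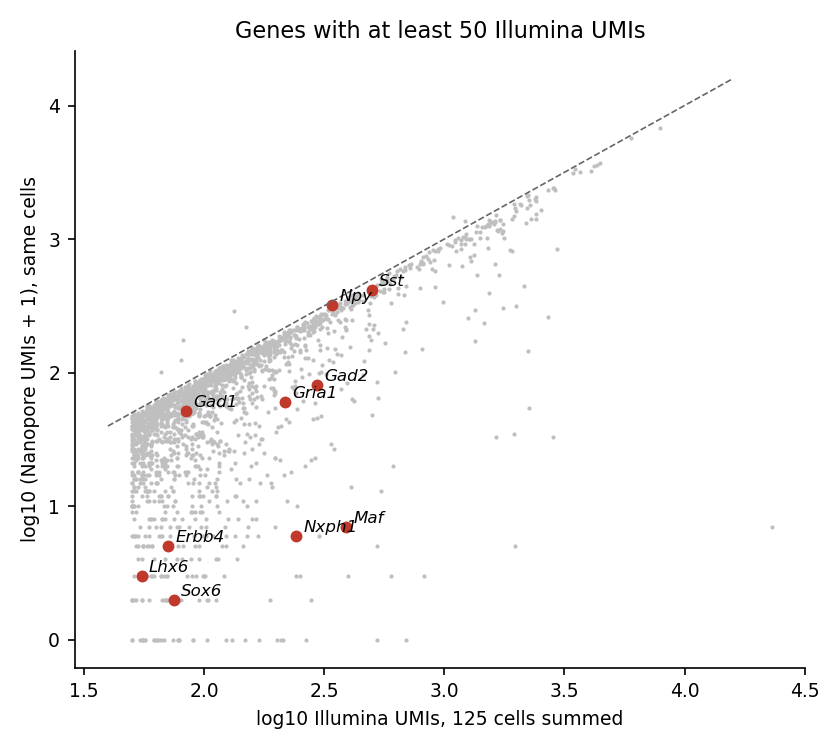
Illumina UMIs (x axis, log10) and isoform-assigned Nanopore UMIs plus 1 (y axis, log10) of each gene with at least 50 Illumina UMIs and a symbol in the isoform tables, summed over the 125 Maf/Nxph1 cells, with named genes in red and a dashed line where both are equal. Sst and Npy lie just below the line, while Maf, Nxph1, Lhx6, Sox6 and Erbb4 lie far below it.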

How the data were processed

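The authors counted Illumina UMIs for every gene in every cell with Cell Ranger 2.0 (mm10). They mapped the Nanopore reads with minimap2, assigned barcodes and UMIs with the help of the Illumina data, and counted UMIs for every isoform of Gencode vM18. These deposited counts were used without change. Only Nanopore UMIs that the authors could assign to an annotated isoform were used here. Cells and gene lists were chosen with earlier results of these data known. UMIs were summed per aliquot and class, and the 5 classes entered 1 fit in edgeR 4.0.16 (R 4.3.3; TMM, filterByExpr, robust quasi-likelihood F test; diffSpliceDGE for isoforms), tested on simulated data first, with Benjamini-Hochberg adjusted p under 0.05. In the simulated data 7% of 2-fold and 53% of 4-fold gene changes were found against the striatal-type cells. Against the glutamatergic neurons 16% and 64% were found. False calls made up 6.25% and 8.05% of the genes called, so an uncalled gene can still differ. Genes that a class rule uses stayed in the fit without a call. For naming, calls needed the same direction in both aliquots and 50 UMIs or more in the higher class (isoforms: 20 in each class). Named were the 10 largest fitted changes in each direction (isoforms: the 10 largest), and from each list 2 to 6 genes with the most UMIs or largest fold. The 190 and 951 in the labels mark a shared aliquot, which pairs the sums. Class sums that share an aliquot deviated together, with correlations of 0.0949 to 0.448 over genes (median 0.153) and 0.0195 to 0.202 over isoforms (median 0.0775) in 10 pairs of classes, so fits with the aliquot as a block are given. DESeq2 1.42.0, RLE factors, no filter, 2 classes only, thinning to 3000 UMIs, stricter classes, removal of doublets (Scrublet in scanpy 1.11.5) and leaving out each sum were alternatives. Exons came from Gencode vM21 on GRCm38, the assembly named mm10 by others, which holds all 159 isoforms looked up. Figures were drawn with matplotlib 3.10.9. Some genes that the naming rule takes are counted but not reported here by name.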

Additional observations from a re-analysis of the deposited data

How the results depend on the processing

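Of the 40 genes and 18 isoforms with the largest changes and the 82 called genes of the lists, no value changed sign. The uncalled Gria2 changed sign against the striatal-type cells, from -0.05 to 0.027 with the replicate block, 0.26 without the Maf/Nxph1 cells of the 190 cell aliquot and 0.25 without the striatal-type cells of the 951 cell aliquot (-0.83 to 0.26 over the sums left out). The median of all genes lay near 0 and did change sign, to 0.03 with DESeq2 and 0.02 with RLE factors against the glutamatergic neurons (from -0.02), to 0.0042 without the glutamatergic neurons of the 951 cell aliquot, and to -0.03 without the Maf/Nxph1 cells of the 951 cell aliquot against the striatal-type cells (from 0.04). With the aliquot as a replicate block, 294 genes were called against the striatal-type cells (193 without the block) and 820 against the glutamatergic neurons (534), and 7 and 18 genes by isoform (3 and 6), and all but 1 of the calls made without the block were among them. DESeq2 called 79 and 249 genes (128 higher and 121 lower in the latter), and cells thinned to 3000 UMIs gave 95 and 246, with 3398 genes tested. By isoform, without a filter on low counts 1 gene was called against the striatal-type cells and 3 against the glutamatergic neurons, stricter classes gave 6 and 0, and a fit of the Maf/Nxph1 cells and the radial glia alone gave 11 (84 genes tested) in place of 39. Leaving out 1 sum at a time gave 54 to 174 genes against the striatal-type cells, 186 to 461 against the glutamatergic neurons, and by isoform 0 to 2, 0 to 7 and 12 to 43. The sum left alone in its class was then assumed to vary like the others. The share of Maf/Nxph1 cells in the 951 cell aliquot was 8.88% with an interneuron sum of at least 4 and 9.09% with the rule on thinned cells. The cause was not tested beyond the smaller number of genes or sums. Chosen after seeing the data, the fit without the barcodes of both aliquots called 165 and 495 genes and that without the Fabp7-rich cell 198 and 551. Over all alternatives the 40 genes and 18 isoforms kept their call in 695 of the values recomputed and missed it in 60. The 82 called list genes kept it in 933 and missed it in 177, among them 34 with DESeq2 and 42 without the Maf/Nxph1 sum of the 951 cell aliquot. Depth limits the isoform test, for which 451 genes had enough UMIs.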
